A study of Drosophila melanogaster with 6 samples.

Results

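Actin filaments give a hemocyte its shape, its motility and its ability to engulf particles. They are built from monomers by nucleators such as the Arp2/3 complex and the formins, trimmed by capping and severing proteins, tied together by crosslinkers, and fastened to the plasma membrane by spectrins and moesin. In Drosophila larvae the phagocytic plasmatocyte is a small motile cell, whereas the lamellocyte is a large flat cell that spreads over foreign objects.

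A list of 40 genes of actin filament and spectrin regulation was examined in circulating hemocytes of wandering larvae in the last instar. A gene was taken as measured where a probe set carried its symbol alone in the array annotation, and the probe set with the highest mean stood for it. This gave 29 measured genes of 40, out of 11982 genes on the array with such a probe set. The others, Act5C, Act42A, capt, Arp2, Arp3, WASp, Sra-1, sqh, zip, jar and Tm1, had no probe set under their symbol in the annotation used here and were not analysed by this rule, so the listed myosins, the listed tropomyosin and the cytoplasmic actins are not among the results.

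The control genotype was hml-Gal4 with UAS-2xEGFP, a driver active in hemocytes with a green fluorescent reporter, and the other genotype added UAS-Idh-R195H, a transgene for the fly counterpart of the cancer-associated IDH1-R132H. Each genotype had 3 arrays, and each array took hemocytes pooled from 400 larvae that were raised at 29 °C and harvested on day 7. The labels call the samples biological replicates. The values were linear probe set intensities, compared after log2(value + 1) with limma over all 18769 probe sets, and a gene was called changed at a Benjamini-Hochberg adjusted p below 0.05. The comparison asked which genes differ between hemocytes with and without Idh-R195H.

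The arrays differed in ways that touch every result below. Idh, the gene of the transgene, was at 3805, 4006 and 4293 on the control arrays and at 11051, 9490.5 and 9360 on the Idh-R195H arrays. Of 10 plasmatocyte markers, 4 (NimC2, crq, Pxn and eater) were lower and Sr-CI was higher on every Idh-R195H array, and the others overlapped. Hml lay between 12663 and 22127 on every array, and NimC4 was dim at 9.62 to 208. The summed intensity of 7 crystal cell markers was 71193 to 73464 on control arrays and 31196 to 53664 on Idh-R195H arrays, with PPO1, PPO2, fok and CG7860 lower and CG17109 higher on every Idh-R195H array. The summed intensity of 8 lamellocyte markers was 5790.3 to 6860 on control arrays and 70930 to 78748 on Idh-R195H arrays, with 8 of 8 non-overlapping between genotypes and none at 0. The summed intensity of 6 salivary gland markers was 23143, 220111 and 229873 on control replicates 1, 2 and 3 and 991 to 4914 on the Idh-R195H arrays. For fat body (3 markers) the sums were 39406 to 108887 against 5534 to 50017, for midgut (7 markers) 1383 to 48003 against 248 to 1062, and for body wall muscle (7 markers) 1472 to 1979 against 507 to 1019. Of the muscle genes, Mlc1 (259 to 423 against 50.8 to 130), Mf (312 to 391 against 55.9 to 160.0) and Prm (75.3 to 117 against 13.9 to 44.8) were lower on every Idh-R195H array, and the other 4 overlapped. In these pooled samples, more cells of a type and more RNA per cell cannot be told apart. The part of these differences in the results below was not tested.

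Of the 29 measured regulators, 6 were higher in Idh-R195H hemocytes at the threshold and 0 were lower. Over all genes 2.30% were called higher and 1.48% lower (3.78% in either direction), and among genes with a mean intensity of at least 100, which includes all 29, 3.19% were called higher. The median log2 fold change was 0.41 for the 29 genes and -0.07 for all genes, and 26 of the 29 had a positive value. An unadjusted p below 0.05 was reached by 13 of the 29 (12 higher and 1 lower), against 21.7% of all genes, and an absolute log2 fold change of at least 1 by 9, against 19.1% of all genes. The 6 genes were shot, kst, cher, twf, capu and Fim, which encode linkers and crosslinkers of filaments, a monomer-binding protein and a formin. The intervals of all 29 genes are shown by role in the plot of fold changes.

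**Figure D1:**
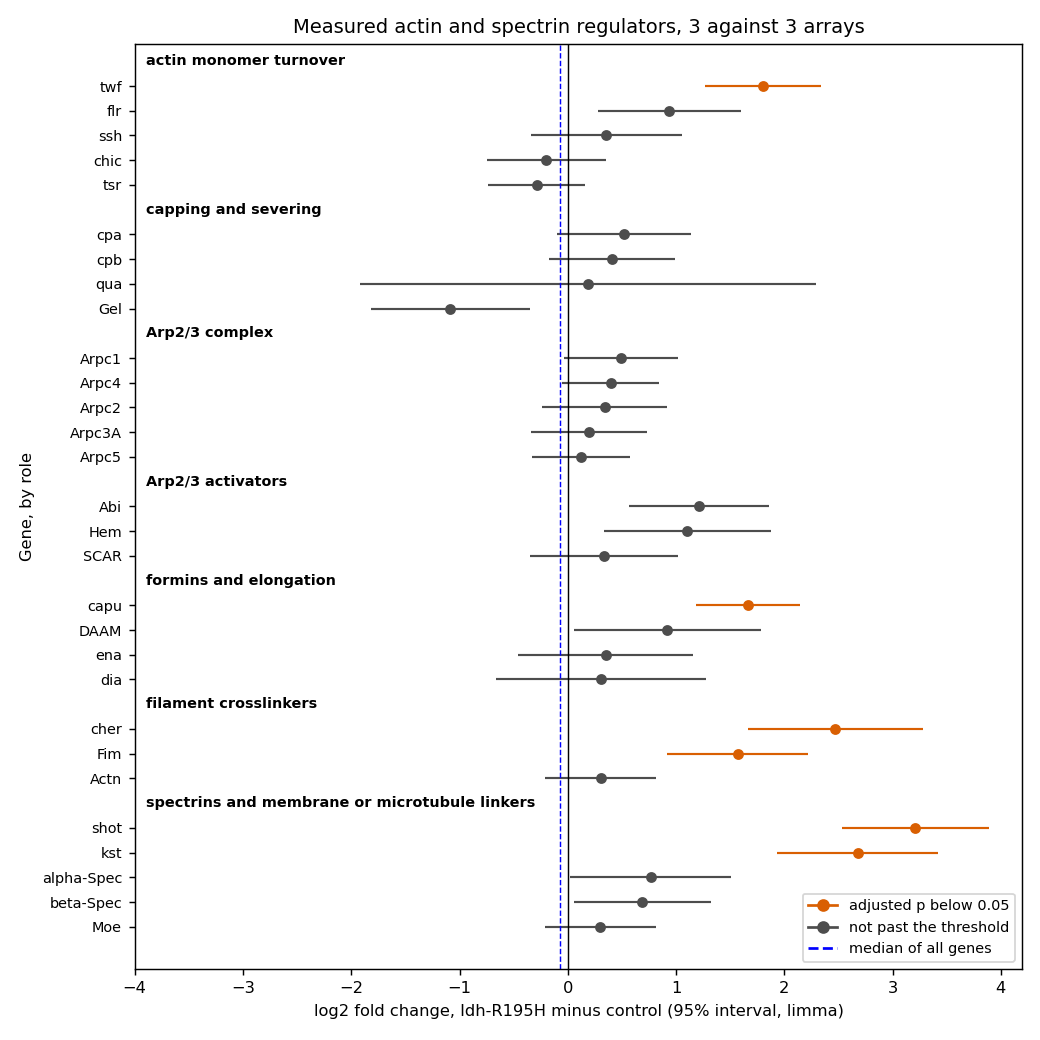
Log2 fold change of the 29 measured genes, Idh-R195H minus control, with 95% intervals from limma (3 arrays per genotype), grouped by role. The 6 genes past the threshold (orange) lie between 1.57 and 3.21, the Arp2/3 subunits lie between 0.12 and 0.49, and Gel is lowest at -1.08; the dashed line is the median of all genes at -0.07.

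The largest log2 fold changes of the 29 genes were those of shot and kst. shot (CG18076) encodes a spectraplakin, a very long protein that joins actin filaments to microtubules. Its probe set read 1013, 719 and 597 on control replicates 1, 2 and 3 and 6566, 8258 and 6361 on the Idh-R195H arrays. The groups were far apart, the dimmest Idh-R195H array standing 6.28-fold above the brightest control array. The log2 fold change was 3.21 ± 0.28 (SE), a 9.24-fold increase with an adjusted p of 0.00767.

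kst (CG12008) encodes the beta-heavy spectrin, which pairs with alpha-spectrin in the apical membrane skeleton of fly epithelia. It read 247, 168 and 157 in control and 1200.4, 1553 and 927 in Idh-R195H hemocytes, without overlap. This was a 6.40-fold increase (log2 fold change 2.68 ± 0.30 SE, adjusted p = 0.0164). The other spectrin chains moved less far and did not pass. alpha-Spec, the common partner of both beta chains, had a log2 fold change of 0.76 (95% interval 0.02 to 1.51, adjusted p = 0.238). beta-Spec, the conventional beta chain, had 0.69 (0.05 to 1.33, adjusted p = 0.218). Both had all Idh-R195H arrays above all control arrays. Moe, the moesin that ties filaments to the membrane, was bright and overlapping, with controls at 16830 to 22086 and Idh-R195H arrays at 21786 to 23868 (log2 fold change 0.30, 95% interval -0.21 to 0.82). Of these 5 genes, 2 therefore rose, and the median log2 fold change of the group was 0.76.

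Filament crosslinkers were the other group with more than 1 gene past the threshold. cher (CG3937) encodes filamin, a flexible crosslinker of filaments that also serves as a lamellocyte marker. It read 3189, 1863 and 1523 in control and 11638, 12881 and 10285 in Idh-R195H hemocytes. The groups did not overlap, and control replicate 1 was the brightest of the controls. The increase was 5.54-fold (log2 fold change 2.47 ± 0.33 SE, adjusted p = 0.0240). Fim (CG8649) encodes fimbrin, which packs filaments into tight bundles. The intensities were 2370.1, 2053 and 1395 in control against 5556, 5341 and 5975, also without overlap. This was a 2.97-fold increase (log2 fold change 1.57 ± 0.26 SE, adjusted p = 0.0420). Actn, the alpha-actinin that spaces filaments in contractile bundles, lay between 424 and 567 on control arrays and between 608 and 649.8 on Idh-R195H arrays. Its log2 fold change of 0.30 (95% interval -0.21 to 0.82, adjusted p = 0.494) did not pass.

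**Figure D2:**
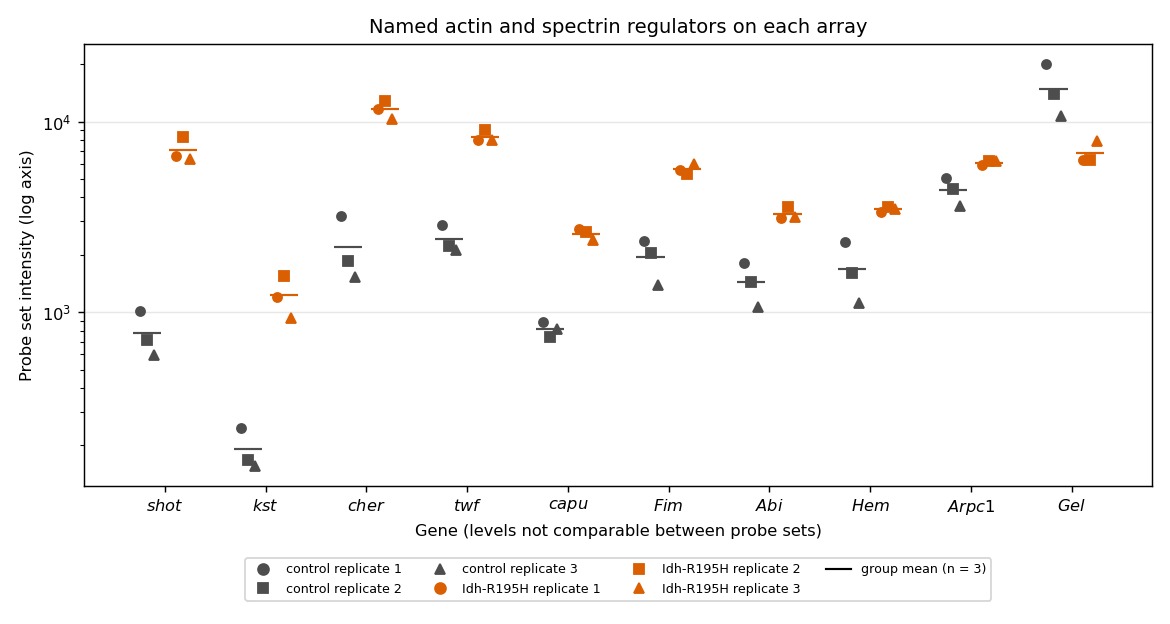
Probe set intensity (log axis) of 10 genes on each of the 6 arrays, control in grey and Idh-R195H in orange, with group means as bars (n = 3). Shown are genes past the threshold, non-overlapping genes with an absolute log2 fold change of at least 1, and each role group's largest change. That the genotypes do not overlap for any of the 10 follows in part from this choice (31.6% of all genes do not overlap). shot lies at 597 to 1013 on control arrays and at 6361 to 8258 on Idh-R195H arrays, and Gel is the gene with lower Idh-R195H arrays.

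Among the proteins that handle actin monomers and turn filaments over, twf stood apart. twf (CG3172) encodes twinfilin, which binds actin monomers and caps filament ends. It read 2883, 2228 and 2111 in control and 7980.1, 9037 and 7994 in Idh-R195H hemocytes. The Idh-R195H arrays were all at least 2.77-fold above every control array, and the increase was 3.49-fold (log2 fold change 1.80 ± 0.22 SE, adjusted p = 0.0201). flr, whose product AIP1 helps cofilin take filaments apart, was non-overlapping but short of the threshold at a log2 fold change of 0.94 (95% interval 0.28 to 1.60, adjusted p = 0.135). ssh, the phosphatase that activates cofilin, overlapped between genotypes at 178 to 295 and 229.5 to 318. The best known turnover proteins did not share the increase of twf. tsr, the fly cofilin, ranged from 36127 to 36841 on control arrays and from 29105 to 31033 on Idh-R195H arrays, which is lower on every array but amounts to a log2 fold change of -0.29 (95% interval -0.73 to 0.16, adjusted p = 0.449). chic, the fly profilin, had -0.20 (95% interval -0.75 to 0.35, adjusted p = 0.707) with overlapping arrays. chic read 17887 to 25947 on control arrays and 18915 to 19658 on Idh-R195H arrays. The highest intensity of any probe set was 52843 to 56235 on control arrays and 37578 to 40283 on Idh-R195H arrays. On control replicate 2 the highest value (52843) was that of Sgs3, a salivary gland marker that read 157 to 1203 on the Idh-R195H arrays. The sign of tsr and chic turned positive after quantile normalization (0.37 for tsr and 0.26 for chic), and scaling on the hybridisation controls gave 0.76 and 0.85, both past the threshold. tsr passed as lower with an intensity trend and a robust prior (adjusted p = 0.0440).

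The capping and severing proteins went different ways. Gel (CG1106), the gelsolin that severs and caps filaments, was the only member with a log2 fold change of -1 or lower. It read 20055, 13892 and 10706 in control and 6276, 6276 and 7947 in Idh-R195H hemocytes, so the genotypes did not overlap. The log2 fold change was -1.08 ± 0.30 (SE) and did not pass (adjusted p = 0.127), except with an intensity trend and a robust prior (adjusted p = 0.0388). Scaling the arrays on the hybridisation controls brought Gel to -0.04. The subunits of the barbed-end capping protein, cpa and cpb, had log2 fold changes of 0.52 and 0.41 (adjusted p = 0.323 and 0.405), each with all Idh-R195H arrays above the controls by a narrow margin. qua, a villin-like bundling protein known from the female germline, scattered from 38.1 to 389 among the control arrays and could not be compared with any precision (log2 fold change 0.19 ± 0.85 SE).

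The Arp2/3 complex nucleates branched filaments, and its 5 measured subunits lay close to each other. Their log2 fold changes were 0.49 for Arpc1, 0.40 for Arpc4, 0.34 for Arpc2, 0.20 for Arpc3A and 0.12 for Arpc5. None passed, with adjusted p between 0.279 and 0.792. Arpc1 (CG8978) had the largest value, with 5065, 4440.0 and 3622 in control and 5904, 6189 and 6181 in Idh-R195H hemocytes. Its 95% interval ran from -0.04 to 1.02. The upper ends of the other 4 intervals lay between 0.57 and 0.92, so increases of the size seen for shot, kst or cher lay outside all 5 intervals with the deposited scaling. The 2 dimmer probe sets of Arpc3A had the opposite sign, at -0.46 and -1.62, without passing (adjusted p = 0.395 and 0.143).

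Arp2/3 is switched on by the SCAR (WAVE) regulatory complex, and 3 genes of it were measured. Abi (CG9749), an adaptor subunit, read 1819, 1440.0 and 1065 in control and 3112, 3548 and 3160.1 in Idh-R195H hemocytes, with no overlap (log2 fold change 1.21 ± 0.26 SE, adjusted p = 0.0775). Hem (CG5837), a core subunit, read 2348, 1598 and 1120.4 and then 3346, 3579 and 3489, again with no overlap (1.10 ± 0.31 SE, adjusted p = 0.134). SCAR itself, the subunit that contacts Arp2/3, had a log2 fold change of 0.33 (95% interval -0.35 to 1.02) and overlapping arrays. None of the 3 passed the threshold in the main comparison. Abi passed in 5 of 16 alternatives (adjusted p from 0.00420 to 0.255) and Hem in 2 of 16 (adjusted p from 0.00542 to 0.345). SCAR passed after scaling on the hybridisation controls (adjusted p = 0.00972), where 27 of the 29 regulators passed. Abi and twf are neighbouring genes in the RefSeq order of genes, and the annotated genes do not overlap.

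Formins and Ena lengthen unbranched filaments. capu (CG3399) encodes a formin best known from the oocyte, where it works with the nucleator Spire. It read 885, 739.8 and 819 in control and 2719, 2631 and 2392 in Idh-R195H hemocytes. All Idh-R195H arrays were at least 2.70-fold above every control array, and the increase was 3.17-fold (log2 fold change 1.66 ± 0.20 SE, adjusted p = 0.0182). The formin DAAM had a log2 fold change of 0.92 (95% interval 0.06 to 1.78, adjusted p = 0.223) with non-overlapping arrays. dia, the formin of the cytokinetic ring, and ena, an elongation factor of protrusions, had 0.31 and 0.35 with overlapping arrays. dia ranged from 249.7 to 639.5 in control and from 455 to 609.7 in Idh-R195H hemocytes.

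**Figure D3:**
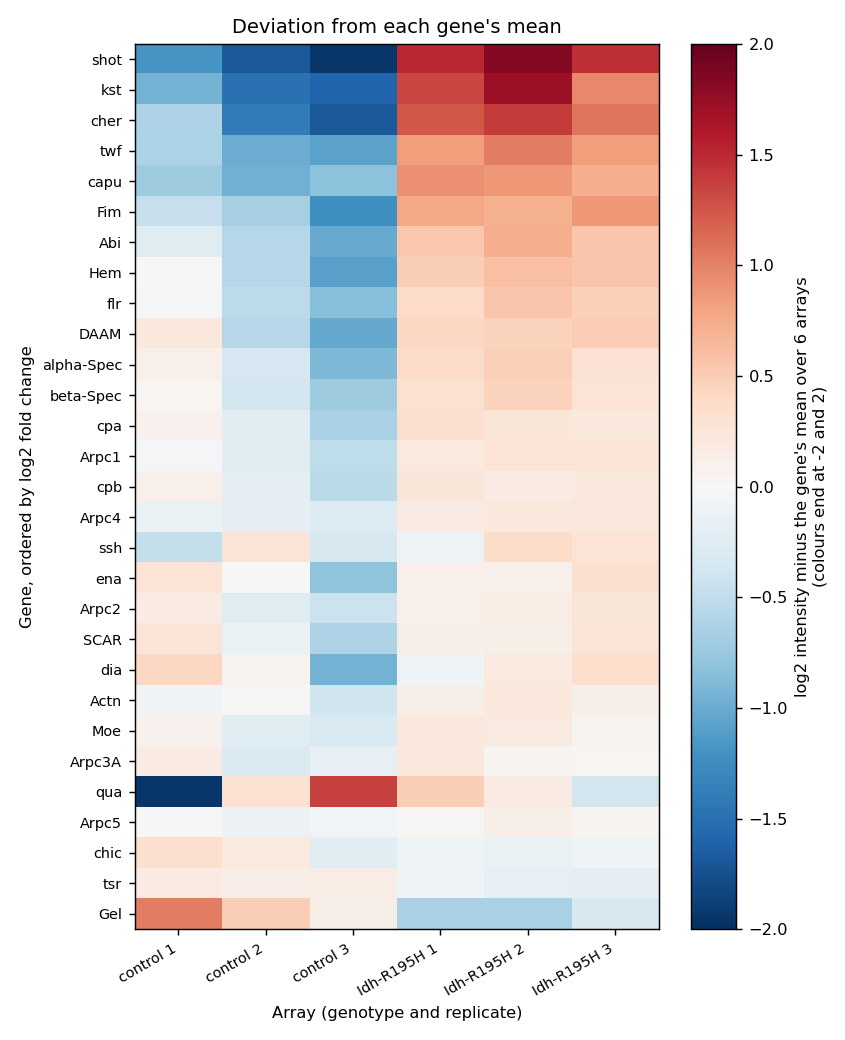
Log2 intensity of each of the 29 genes on each array, as the deviation from that gene's mean over the 6 arrays (colours end at -2 and 2), with genes ordered by log2 fold change. Control replicate 3 is the lowest control array for 23 genes and control replicate 1 the highest for 26, while the 3 Idh-R195H arrays look alike.

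The regulators also moved together among the control arrays. Control replicate 1 was the brightest control array for 26 of 29 genes, against 43.3% of all genes, and control replicate 3 was the dimmest for 23 of 29, against 38.4% of all genes. The median deviation of the 29 genes from their own means was -0.0019 on control replicate 1, -0.25 on control replicate 2 and -0.64 on control replicate 3, on the log2 scale. On the Idh-R195H arrays it lay between 0.23 and 0.27. All genes together had median deviations between -0.04 and 0.07 on the 6 arrays. The median within-group SD of the 29 genes was 0.38 log2 units in control and 0.09 in Idh-R195H hemocytes (0.46 and 0.19 over all genes). Control replicate 1 was also the control array with the least salivary gland, fat body and midgut signal, but with the most body wall muscle signal. On control replicates 1, 2 and 3 the sums were 39406, 108887 and 90161 for fat body and 1383, 48003 and 5831 for midgut. For body wall muscle they were 1979, 1636 and 1472. The summed intensity of 10 plasmatocyte markers was 143723 on control replicate 1, against 95416 and 82462 on control replicates 2 and 3 and 88385 to 92515 on the Idh-R195H arrays. The part of these signals in the differences between control arrays was not tested.

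Control replicate 1 was the brightest control array for each of the 6 called genes, and none of the 6 overlapped between genotypes. Measured against control replicate 1 alone, their values therefore had to shrink and could not change direction. The fold was 6.92 for shot, 4.84 for kst, 3.62 for cher, 2.91 for capu, 2.89 for twf and 2.37 for Fim. With this single control array only shot passed in limma (adjusted p = 0.0492), and the adjusted p of the others lay between 0.0510 and 0.0679; the lone control array was assumed to vary like the Idh-R195H arrays. The median log2 fold change of the 29 genes was then 0.27 and that of all genes -0.05. All 3 Idh-R195H arrays exceeded control replicate 1 for 20 of the 29 genes, against 37.5% of all genes.

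Arrays of the genotypes did not overlap for 20 of the 29 genes, 18 higher and 2 lower. Over all genes 31.6% did not overlap, 14.9% higher and 16.8% lower, and 19.7% were higher among genes with a mean intensity of at least 100. Without Idh-R195H replicate 1, 2 or 3, 0 regulators passed in limma, although 10 had an unadjusted p below 0.05 in each case (2633, 2577 and 2940 of 18769 probe sets did). The log2 fold change of shot was then 3.26, 3.09 and 3.28 (adjusted p from 0.0501 to 0.0599) and that of kst 2.68, 2.49 and 2.86 (adjusted p from 0.0580 to 0.0872). In the same fits over the whole array 86, 11 and 68 probe sets passed, where 584 (3.11% of those tested) passed with all 6 arrays. Without control replicate 2 only shot passed, and without control replicate 3 shot, kst, twf and capu passed. Without control replicate 1 the count was 8, with Abi and Hem added to the 6. Over the whole array 155, 300 and 870 of 18769 probe sets passed without control replicates 2, 3 and 1, in that order.

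**Figure D4:**
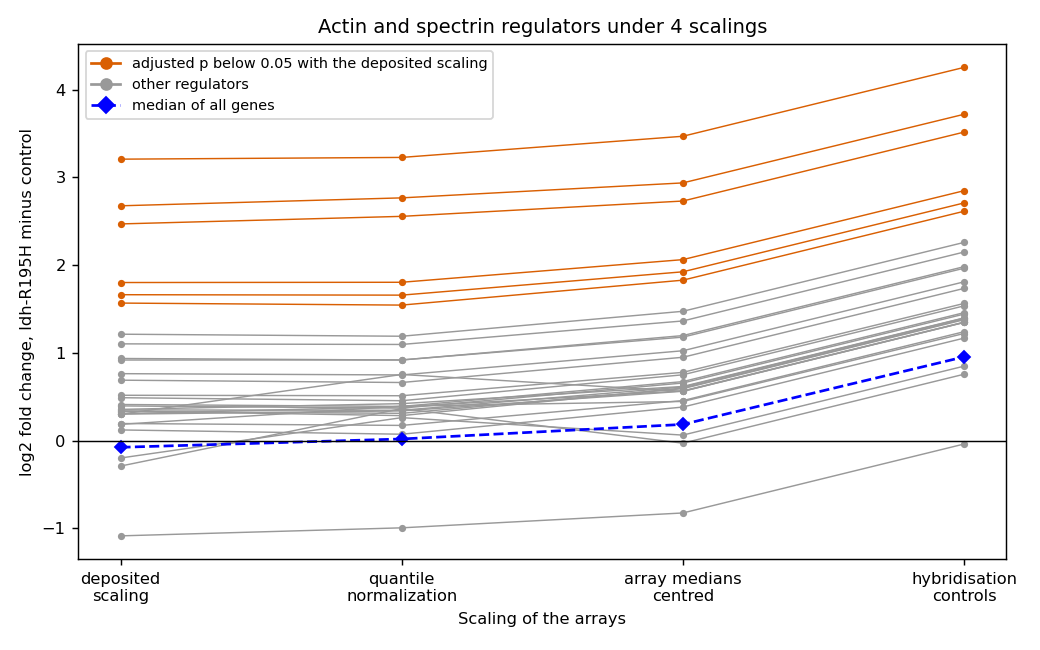
Log2 fold change of the 29 genes under 4 scalings of the arrays, with the 6 genes past the threshold under the deposited scaling in orange and the median of all genes as a dashed blue line. The 6 stay on top under each scaling, an order that only quantile normalization could readily change. Centring and the hybridisation controls move all genes of an array by nearly the same amount. Scaling on the hybridisation controls moves all genes up, to a median of 0.96 for all genes.

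The scaling of the arrays set the level around which these values lie. As deposited, all genes together had a median log2 fold change of -0.07. It became 0.02 by quantile normalization, 0.19 by centring on array medians and 0.96 by scaling on 18 hybridisation control probe sets, which were 1.92-fold brighter on control arrays in the median. The median of the 29 regulators exceeded that of all genes by 0.49, 0.44, 0.49 and 0.50 in the same order. Only quantile normalization could readily change this gap. Centring and scaling on the hybridisation controls move all probe sets of an array by nearly the same amount. After scaling on the hybridisation controls 27 regulators passed, along with 7017 probe sets of the whole array. Fim was lost after centring on medians (adjusted p = 0.0609).

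Act5C, a cytoplasmic actin, was represented here by array control probe sets along its transcript, which were kept out of the fit and have no test. The probe set at the 5' end read 11298, 9204 and 6211 in control and 14749, 14493 and 15265 in Idh-R195H hemocytes. The middle probe set read 14976, 15271 and 10663 and then 23828, 23122 and 21877. Both were higher on every Idh-R195H array. The 3' probe set went the other way, at 42073, 40982 and 38317 in control and 35177, 33572 and 32588 in Idh-R195H hemocytes. The direction for Act5C therefore depended on the position along the transcript, and no level of the gene can be read from these values. The ratio of 3' to 5' intensity, a measure of how much of the transcript was intact and copied, was 3.72, 4.45 and 6.17 on control replicates 1, 2 and 3 and 2.13 to 2.39 on the Idh-R195H arrays. The same ratio for Gapdh was 9.27, 13.5 and 7.25 on the control arrays and 4.66 to 6.02 on the Idh-R195H arrays, and for eIF4A 5.78, 5.74 and 6.48 against 3.27 to 3.49. All 3 ratios were thus higher on every control array, but the control arrays did not rank alike. The position of the regulators' own probe sets was not known here, and the part of this ratio in their values was not tested.

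**Figure D5:**
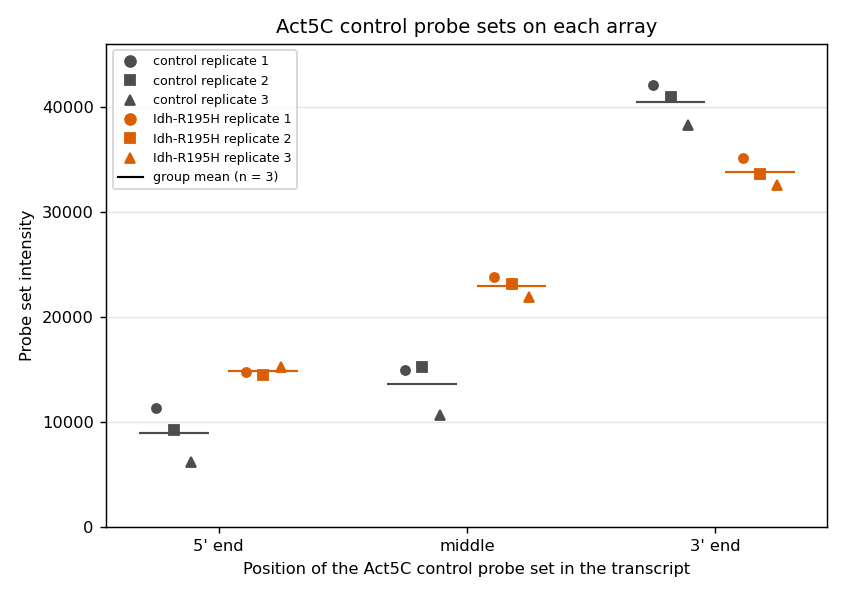
Intensity of the 5', middle and 3' control probe sets of Act5C on each array, with group means as bars (n = 3). Idh-R195H arrays lie above control at the 5' end (14493 to 15265 against 6211 to 11298) and in the middle, and below control at the 3' end (32588 to 35177 against 38317 to 42073).

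A wider list held 61 gene names of the actin cortex, including kinases, further nucleators, filament binders, myosins and adducin or ankyrin genes. In it tmod was also spelled Tmod, so the names are not all separate genes. The list had 40 measured genes. Of these, 6 were higher and 1 was lower at the threshold, against 2.30% and 1.48% of all genes, and the median log2 fold change was 0.23, against -0.07 for all genes. Values were positive for 23 of the 40 and negative for 17, among them all 3 measured other myosins and light chains (median -0.28). The largest value was that of trio, at 2.37, 11.6 and 1.11 in control and 397, 404 and 375 in Idh-R195H hemocytes. The control values lie far below the array medians of 76.6 to 107, so the fitted log2 fold change of 6.46 ± 0.66 (SE, adjusted p = 0.0116) depends on the added constant.

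Partners of the regulators above were among the others. spir, the nucleator that works with Capu in oocytes, read 84.8, 115 and 87.1 in control and 322, 291 and 284 in Idh-R195H hemocytes (log2 fold change 1.64 ± 0.22 SE, adjusted p = 0.0240). Cip4, a membrane-bending adaptor that acts with the SCAR and WASp proteins, rose 3.10-fold (1.63 ± 0.27 SE on the log2 scale, adjusted p = 0.0380). The 7 measured genes of this group of further nucleators and partners all had positive values, with a median of 1.63. Of the other measured formins, form3 had 3.12 and Fhos 2.09, neither past the threshold (adjusted p = 0.0668 and 0.0611). Zasp52, an actinin-binding scaffold, and Vinc, vinculin, rose by 2.59 ± 0.25 (SE, adjusted p = 0.0103) and 2.19 ± 0.27 (SE, adjusted p = 0.0201) on the log2 scale. They were the only 2 of 8 measured other filament binders with a positive value. The other 6 were negative, and the median of that group was -0.41. flw, a catalytic subunit of myosin phosphatase, was just inside the threshold at 1.37 ± 0.25 (SE, adjusted p = 0.0496).

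The gene that fell in the wider list was Tm2, a tropomyosin of muscle, dim at 64.6, 67.1 and 47.0 in control and 9.10, 10.9 and 21.9 in Idh-R195H hemocytes (log2 fold change -2.09 ± 0.37 SE, adjusted p = 0.0486). Body wall muscle markers were lower on the Idh-R195H arrays as well (the sums above), and their part in this value was not tested. Strn-Mlck, a kinase of the muscle titin family, read 47.1, 501 and 558 on control replicates 1, 2 and 3. It read 35.3 to 53.9 on the Idh-R195H arrays (log2 fold change -2.45, adjusted p = 0.242). The controls with the high values had the higher salivary gland sums but the lower body wall muscle sums (1636 and 1472, against 1979 on control replicate 1). The part of either tissue in these values was not tested. cora, a membrane linker of septate junctions, had 1.93 ± 0.42 (SE, adjusted p = 0.0786). The 3 measured muscle actins, Act79B, Act87E and Act88F, overlapped between genotypes, with log2 fold changes of -0.53, -0.20 and 0.43. Without Idh-R195H replicate 1, 2 or 3, 0 of these 40 genes passed in limma, with 14, 12 and 12 at an unadjusted p below 0.05 (2633, 2577 and 2940 of 18769 probe sets).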

How the data were processed

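Per the labels' protocols, biotin-labelled RNA (6 ug of total RNA per sample) was hybridised to 1-colour arrays; the submitters' processing notes name Partek 6.0 with no role, and the method of summarising probes is not given in the sources used here. The deposited numbers are intensities of probe sets on a linear scale, and every array has the same trimmed mean (500.0, 2% left out at each end), so each had been scaled to a common mean. All 6 columns were used. Of 18952 probe sets, 183 array controls were left out and 18769 tested; 13647 had 1 gene symbol, 402 several and 4720 none in the array annotation, which can be old, and 13544 of the first matched the RefSeq table (Release 6, used only for names and gene neighbours). The names of 16 of the 29 probe sets mark probes common to transcripts or to similar sequences (11 and 5).

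The genotypes were compared on log2(value + 1) with limma 3.58.1 in R 4.3.3 (linear model on group, empirical Bayes, two-sided, Benjamini-Hochberg over all probe sets). Fold changes of dim genes depend on the added constant, and which dim probe sets lay above background is unknown. The number of arrays limits the precision. Steps were tested on simulated data. The gene list, role groups, marker lists and naming rule were chosen with earlier results of these data known. All 6 arrays are given for genes past the threshold, for non-overlapping genes with an absolute log2 fold change of at least 1, and for the largest change in each role group. In all, 15 alternatives were planned and 1, control replicate 1 as the only control, was added after seeing the data. A planned search of promoters for motifs was not done.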

Additional observations from a re-analysis of the deposited data

Results flagged for a closer look

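Of 8 actin control probe sets outside the fit, the 6 at the 5' end and in the middle stood higher on all 3 Idh-R195H arrays than on all 3 control arrays. Over all genes 14.9% did so, and the 8 probe sets lie along actin transcripts, so they are not separate cases. For Act5C, the fold (from mean log2 values) was 1.72 at the 5' end, 1.68 for a second 5' probe set and 1.70 in the middle. For the older actin control set it was 1.41 at the 5' end and 1.25 and 1.48 for its middle probe sets. The 3' probe sets were at 0.835 (Act5C, lower on every Idh-R195H array) and 1.03 (older set, overlapping). These probe sets are array controls, so the differences were not tested. The direction depended on the position along the transcript, and the ratio of 3' to 5' intensity of Act5C was higher on every control array. No level of actin can be read from these values.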

How the results depend on the processing

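None of the 10 genes given array by array, and not Idh, changed sign under any alternative run for it, whereas tsr and chic turned positive after quantile normalization (0.37 and 0.26). The arrays of the 10 genes and of Idh do not overlap between genotypes, so leaving out arrays could not change their sign. The 6 called genes passed in 7 (Fim) to 11 (shot) of the 15 or 16 alternatives that gave them a value. Some of these passes were close to fixed in advance. Each of the 6 had a single probe set, so averaging over the probe sets of a gene refitted the same values. For kst and twf, keeping only probe sets whose names do not mark common probes repeated the main fit. The count of regulators called was 6 and became 27 after scaling on the hybridisation controls, 10 (8 higher and 2 lower) with an intensity trend and a robust prior, 2 of 14 measured with only probe sets whose names do not mark common probes, and 1 where control replicate 1 was the sole control. Leaving out single arrays gave 0 to 8. The median log2 fold change of the regulators was 0.41 and became 0.67 after centring on array medians and 1.46 after scaling on the hybridisation controls. The 584 probe sets called over the whole array became 7017 with that scaling (6853 higher and 164 lower), 1297 with a mean intensity of at least 100 (fewer probe sets tested), 888 with a constant of 16, 1253 with trend and robust prior and 346 against control replicate 1 alone, and 11 to 870 without single arrays. Centring on array medians gave 318 higher and 111 lower, against 356 and 228. Genes shot, cher, capu and Fim had no probe set whose name does not mark common probes, so they were not measured in that setting. The cause of the other changes in the counts was not tested. With the replicate number as a block, limma called 0 regulators and 0 probe sets (10 and 3088 at an unadjusted p below 0.05). Deviations of same-numbered arrays correlated at 0.03, 0.02 and -0.07, and not every array correlated best with its own number. With 3 arrays per genotype these correlations cannot decide whether same-numbered samples were handled together. No detection call was used, so which dim probe sets lay above background is unknown.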
